A study of Mus musculus with 4 samples.

Results

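The enzymes that carry squalene synthesis through to cholesterol were examined in the livers of 4 ABCA1-transgenic mice. The members are 10 genes, taken in pathway order as Fdft1, Sqle, Lss, Cyp51, Msmo1, Nsdhl, Hsd17b7, Ebp, Sc5d and Dhcr7. Every array probe set annotated to 1 of these symbols alone was used, which gave 19 of the 22626 probe sets, for 10 of 12393 genes. The mice were male, 5 to 6 months old, of strain C57BL/6, carried the ABCA1 transgene (ABCA1-TG) and ate the NIH36 diet, and each gave 1 array of biotin-labelled liver RNA. The LDL receptor background is given as -/- in the series title and as +/- in the sample descriptions, so it is unsettled here. No label says which promoter drives the transgene or whether the line is 1 clone. The series design names wild-type controls, which were not analysed here, so each comparison below is between transgenic mice, called mouse 1 to mouse 4 after their replicate numbers.

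Cholesterol is built from acetyl-CoA in an early arm that ends at farnesyl diphosphate and a sterol arm that starts with squalene. In the sterol arm squalene is oxidised and folded into lanosterol, lanosterol loses its extra methyl groups, and the double bonds of the ring system are moved and reduced. The liver is a main site of this pathway, and its genes are switched on together by the transcription factor SREBP-2 when the sterol content of the endoplasmic reticulum falls. SREBP-2 acts on these promoters beside NF-Y, which binds CCAAT boxes.

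The promoters are shown because the members are known to share this regulation. RefSeq (build GRCm38.p6) gave a promoter window for 8 of the members, from 250 bases before to 50 bases after the start site. Where a gene had several start sites, the one nearest its annotated 5 prime end was used. The motif CCAAT, on either strand, was in 7 of 8 windows, against 37.4% of all 32851 windows of that length. In the 120 bases before the start it was again in 7 of 8, against 21.3% of all windows. GGGCGG, the core of a GC box, was in 8 of 8 windows of 300 bases, against 35.7% of all, and in 3 of 8 of the shorter ones, against 26.5%. The sterol element TCACNCCAC was in 0 of 8, against 1.24% of all windows of 300 bases. Each motif was searched on both strands, and matches of different motifs were allowed to overlap. The 120 bases before the start follow for 4 members, 5 prime to 3 prime on the strand of the gene, with CCAAT or its reverse complement ATTGG in capitals.
Cyp51, chr5:4104698-4104817, minus strand: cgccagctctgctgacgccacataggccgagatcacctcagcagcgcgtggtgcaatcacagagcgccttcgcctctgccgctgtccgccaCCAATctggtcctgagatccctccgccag
Msmo1, chr8:64733579-64733698, minus strand: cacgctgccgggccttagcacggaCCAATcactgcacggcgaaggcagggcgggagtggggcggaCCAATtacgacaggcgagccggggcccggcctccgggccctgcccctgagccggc
Ebp, chrX:8193513-8193632, minus strand: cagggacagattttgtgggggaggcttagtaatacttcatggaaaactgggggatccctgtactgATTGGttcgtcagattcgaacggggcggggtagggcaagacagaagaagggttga
Dhcr7, chr7:143823047-143823166, plus strand: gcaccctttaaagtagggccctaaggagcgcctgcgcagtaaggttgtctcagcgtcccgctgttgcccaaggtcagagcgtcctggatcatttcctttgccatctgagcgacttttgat
Msmo1 held 2 copies in this stretch, Cyp51 and Ebp 1 each, and Dhcr7 none. For Dhcr7, 1 of the 2 other windows in the table held the motif. A match is a string of letters and was not tested as a binding site.

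Measured values are signal intensities on a linear scale, 1 for each probe set and array, and differences are given in log2. Probe sets bind with unequal strength, so each was compared only with itself across mice. The median signal of the arrays ran from 267 to 305. In each mouse, 8 hepatocyte markers such as Alb (albumin) summed to between 361318 and 395924 signal units, so the pieces read as liver. Skeletal muscle and exocrine pancreas markers varied more. The 13 muscle markers summed to 1319, 11230, 8160 and 10363 in mice 1 to 4, and the 9 pancreas markers to 1831, 6916, 2106 and 2987. A mean log2 level under 8 was found for 5 of the 13 muscle and 5 of the 9 pancreas markers, against 47.9% of all probe sets. Whether muscle or pancreas was present in each piece was not tested. Abca1, the transporter of cholesterol to apolipoprotein A-I and the gene overexpressed by design, measured 12.82 ± 0.17 log2 on its brightest probe set (SD, n = 4). Whether the transgene is mouse or human is not stated, and what this mouse probe set reads of it was not tested.

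The first enzymes, which make squalene and fold it, gave higher signals in mice 2 and 3 than in mice 1 and 4 on their brightest probe sets. Fdft1, squalene synthase, joins farnesyl units into squalene. Its brightest probe set (1438322_x_at) measured 2628, 4539, 4915 and 2783 signal units in mice 1 to 4. A second (1448130_at) measured 1434, 2955, 3120 and 1561, the same order of mice. The highest over the lowest mouse was 1.87-fold on the first and 2.18-fold on the second. Sqle, squalene epoxidase, adds the oxygen that primes squalene for folding and is a known control point of the pathway. It was read by 1 probe set, which measured 837, 3041, 3028 and 1349 in mice 1 to 4. Mice 2 and 3 were nearly level, mouse 1 was lowest and mouse 4 lay between, with 3.63-fold between the ends. Lss, lanosterol synthase, closes the rings. Its brightest probe set measured 964, 2044, 1731 and 1047 in mice 1 to 4, a 2.12-fold range with mouse 1 lowest and mouse 2 highest.

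The other probe sets of Fdft1 and Lss were dim and less alike. Fdft1 1438919_x_at measured 89.0, 273.9, 224.5 and 88.4 in mice 1 to 4, and 1438918_at measured 146.7, 226.5, 153.8 and 215.0. The first of these kept mice 1 and 4 low, and the second put mouse 4 close to mouse 2. Lss 1426913_at measured 108.8, 198.9, 446.9 and 101.7, and 1420014_at measured 61.1, 152.2, 127.2 and 80.2. Both had mice 1 and 4 lowest, while the highest mouse was mouse 3 on one and mouse 2 on the other. Of the 19 probe sets, 5 had a mean log2 level under 8, where the arrays were noisier.

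The demethylating enzymes were also higher in mice 2 and 3 than in mice 1 and 4 on their brightest probe sets. Cyp51 is the cytochrome P450 that removes the first methyl group of lanosterol. Its 3 probe sets measured 1187, 2134, 1946 and 1391 (1450646_at), 546.5, 919.6, 999.9 and 607.7 (1422533_at), and 130.2, 174.5, 229.2 and 172.3 (1422534_at) in mice 1 to 4. Each had mouse 1 lowest, and the highest over the lowest mouse was 1.80-fold, 1.83-fold and 1.76-fold. Msmo1 is the monooxygenase that starts removal of the remaining methyl groups. It measured 6455, 9055, 8638 and 4590 in mice 1 to 4, and here mouse 4 was lowest, 1.97-fold under mouse 2. Nsdhl, the decarboxylating dehydrogenase of the same complex, measured 2425, 3963, 3692 and 2260, also lowest in mouse 4. Hsd17b7, the ketosteroid reductase that closes each round, measured 1096, 1405, 1316 and 1048 on its brighter probe set and 537.4, 588.1, 550.1 and 436.9 on the other. Both had the order of mice found for Msmo1, at 1.34-fold and 1.35-fold from end to end.

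The last steps held both the flattest member, Ebp, and the widest, Dhcr7. Ebp, the isomerase that moves a ring double bond, measured 14509, 14307, 13950 and 12378 in mice 1 to 4, a 1.17-fold range. It was the 1 member highest in mouse 1. Sc5d, the desaturase that adds a double bond, measured 5082, 5799, 8604 and 5888 on 1451457_at, with mouse 3 alone high. Its dimmer probe set, 1424709_at, measured 376.9, 232.5, 297.6 and 232.8, with mouse 1 highest, so the probe sets of Sc5d did not give 1 order. Dhcr7, the reductase that forms cholesterol in the final step, measured 1524, 4731, 5772 and 2286 in mice 1 to 4. Mouse 3 was highest and mouse 1 lowest, 3.79-fold apart, the widest range of the 10 members on their brightest probe sets. Over all members, 8 of 10 differed by 1.5-fold or more between the highest and the lowest mouse, against 50.5% of all genes.

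**Figure D1:**
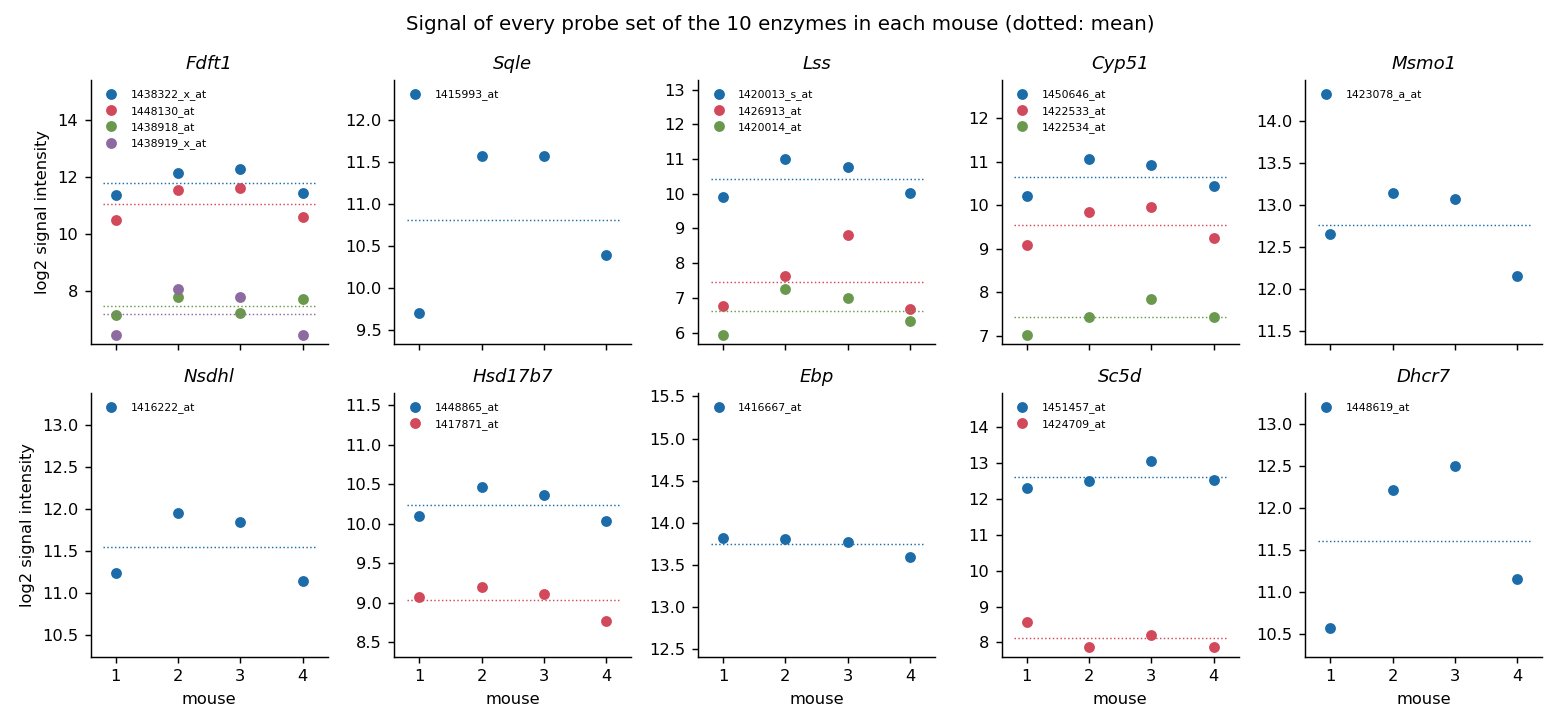
Signal of all 19 probe sets of the 10 enzymes. Each panel is 1 gene, the x axis is the mouse (1 to 4), the y axis is log2 signal intensity on a scale of its own per panel, points are single arrays and dotted lines are means over the 4 mice. Sqle and Dhcr7 show the widest ranges among the brightest probe sets (3.63-fold and 3.79-fold), and Ebp is nearly flat (1.17-fold).

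Set against each other in pairs, mice 2 and 3 each exceeded mice 1 and 4 for most members. Each pair was written in the direction that made the members' median positive. The pairs share the same arrays, so they are not separate results. With the brightest probe set of each gene, mouse 2 minus mouse 1 had a median of 0.75 log2 over the members (1.68-fold), with 9 of 10 higher, against 59.2% of all genes. Of the members, 6 of 10 were higher by 1.5-fold or more, against 16.1% of all genes. Mouse 3 minus mouse 1 had a median of 0.74, with 9 of 10 higher (60.2% of all genes) and 7 of 10 past 1.5-fold (17% of all genes). Mouse 2 minus mouse 4 had a median of 0.76, with 9 of 10 higher (59.4%) and 7 past 1.5-fold (18.6%). Mouse 3 minus mouse 4 had a median of 0.72, with 10 of 10 higher (60.2%) and 6 past 1.5-fold (19.2%). The median over all genes lay between 0.09 and 0.11 in these 4 pairs, and no member was lower by 1.5-fold in any of them, against 8.36%, 8.41%, 8.16% and 7.82% of all genes in the order given. The exceptions to the direction were Ebp, at -0.02 for mouse 2 minus mouse 1 and -0.06 for mouse 3 minus mouse 1, and Sc5d, at -0.02 for mouse 2 minus mouse 4. All 3 turned to higher under quantile normalization, and Ebp turned to lower in mouse 3 than in mouse 4 with the arrays set to the same median. There was 1 array per mouse, so no pair was tested, and animal, RNA preparation and array cannot be told apart. In whole liver, fewer cells of a type and less RNA per cell cannot be told apart either.

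In the remaining pairs the members split. Mouse 2 minus mouse 3 had a median of 0.05, with 7 of 10 higher (48.7% of all genes) and none 1.5-fold apart in either direction (11.3% of all genes higher by that fold, 11.9% lower). Sc5d differed most there, at -0.57, followed by Dhcr7 at -0.29. Mouse 4 minus mouse 1 had a median of 0.10, with 6 of 10 higher (50% of all genes). Sqle at 0.69 and Dhcr7 at 0.59 were past 1.5-fold (9.48% of all genes), while Msmo1 lay at -0.49, and none was lower by 1.5-fold (11.7% of all genes). Mouse 1 was lowest for 6 members and mouse 4 for the remaining 4. Over all genes 28.9% were lowest in mouse 1 and 30.7% in mouse 4, while 20% and 20.4% were lowest in mice 2 and 3, where no member was. The highest mouse was mouse 2 for 6 members and mouse 3 for 3, against 29.8% and 33.5% of all genes. Mouse 1 was highest for 1 member (17.4% of all genes) and mouse 4 for 0 (19.3%).

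**Figure D2:**
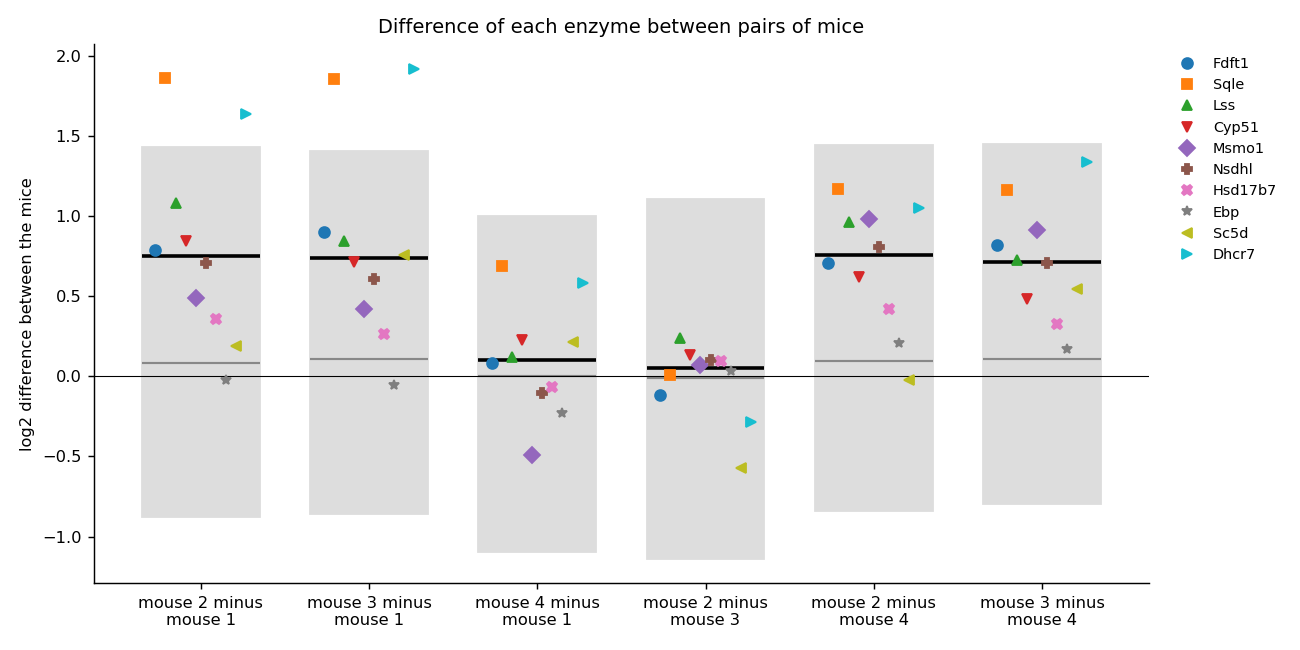
Log2 difference between the 2 mice of each of the 6 pairs (y axis), for the brightest probe set of each enzyme (symbols). Black bars are medians of the 10 enzymes, grey bars medians of all 12393 genes and grey boxes the range from the 5th to the 95th percentile of all genes. The black bars lie between 0.72 and 0.76 in the 4 pairs of mouse 2 or 3 with mouse 1 or 4, and at 0.10 and 0.05 in the other pairs.

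Signals of other tissues also differed between these mice. Mouse 1 had the lowest muscle sum, with 13 of 13 markers higher in mouse 2 than in mouse 1 and 12 of 13 higher in mouse 3 than in mouse 1. Mouse 4 also exceeded mouse 1 for 13 of 13 muscle and 9 of 9 pancreas markers, although only 6 of 10 enzymes were higher there. Mouse 2 had the highest pancreas sum. In mouse 2 against mouse 4 the enzymes were higher for 9 of 10, and pancreas markers were higher for 9 of 9, with a median of 1.29 log2. In mouse 3 against mouse 4 the enzymes were higher for 10 of 10. Muscle markers summed to 8160 in mouse 3 and 10363 in mouse 4, and pancreas markers to 2106 in mouse 3 and 2987 in mouse 4. Hepatocyte markers summed to 361318 in mouse 3 and 382690 in mouse 4. Adrenal cortex markers, a tissue rich in these enzymes, summed to between 1113 and 1429 signal units in every mouse, with 6 of 6 higher in mouse 3 than in mouse 4. Mouse 2 likewise exceeded mouse 4 for 6 of 6 adrenal markers. Compared with mouse 1, only 3 of 6 adrenal markers were raised for mouse 2, and 4 of 6 for mouse 3. The adrenal markers had mean log2 levels of 9.05 for Cyp21a1, 8.50 for Star, 7.24 for Mc2r, 6.90 for Hsd3b1, 6.35 for Nr5a1 and 2.70 for Cyp11a1. The control probe sets for the 3 prime and 5 prime ends of the Gapdh transcript had a log2 ratio of 1.67 in mouse 1 and 1.94, 2.03 and 2.00 in mice 2 to 4. Bile duct markers summed to 679.5 in mouse 1 and to between 1285 and 1447 in the other mice. Macrophage markers summed to between 37336 and 46473, endothelial to between 13325 and 14449, stellate cell to between 13043 and 14878, adipocyte to between 12727 and 15761, and erythroid to between 3427 and 4516. Pck1, at a mean log2 level of 13.70, and Alas2, at 11.76, made up most of the adipocyte and the erythroid sum. As a median over the 6 adipocyte markers measured, mouse 2 lay at 0.68 log2 from the mean of the 4 mice. Mice 1, 3 and 4 lay at -0.20, -0.25 and -0.17, and 5 of 6 markers were higher in mouse 2 in each of these pairs. Of these 6 markers, 3 had a mean log2 level under 8. The part of these signals in the enzyme differences between mice was not tested.

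The members were also set out by stage. As a median over members, relative to the mean of the 4 mice, mouse 2 lay at 0.57 log2 for the 3 squalene and lanosterol synthesis genes, 0.39 for the 4 demethylating genes and 0.06 for the last 3. Mouse 3 lay at 0.46, 0.28 and 0.47 for the same stages. Mouse 1 lay at -0.51, -0.22 and -0.29, and mouse 4 at -0.39, -0.31 and -0.15. Mouse 2 was near the mean of the 4 mice in the last stage, and the last stage mixes Dhcr7 with the flat Ebp. Each median rests on 3 or 4 genes, and no difference between stages was tested.

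The spread of each probe set between mice was then tested against the spread usual at its level. The prior SD, a curve fitted by limma through the variances of all probe sets along mean level, served as the yardstick. Dhcr7 had an SD of 0.90 log2, 5.18 times the prior, and Sqle an SD of 0.92, 4.96 times the prior (n = 4 each). Only 0.155% and 0.168% of all probe sets had a larger ratio. The next were Fdft1 1448130_at at 3.27 times, Msmo1 at 2.90 and the brightest probe sets of Lss and Fdft1 at 2.78 and 2.74. The median over the 19 probe sets was 2.06, against 0.97 over all probe sets. After Benjamini-Hochberg adjustment over all 22626 probe sets, 0 of 19 member probe sets passed limma's test, as did 0% of all (adjusted p = 0.977 for Sqle and for Dhcr7). At an unadjusted p under 0.05 there were 8 of 19, against 3.71% of all probe sets. Ebp at 0.74 times and the probe sets of Hsd17b7 at 0.79 and 1.04 times the prior stood at or under the usual spread.

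**Figure D3:**
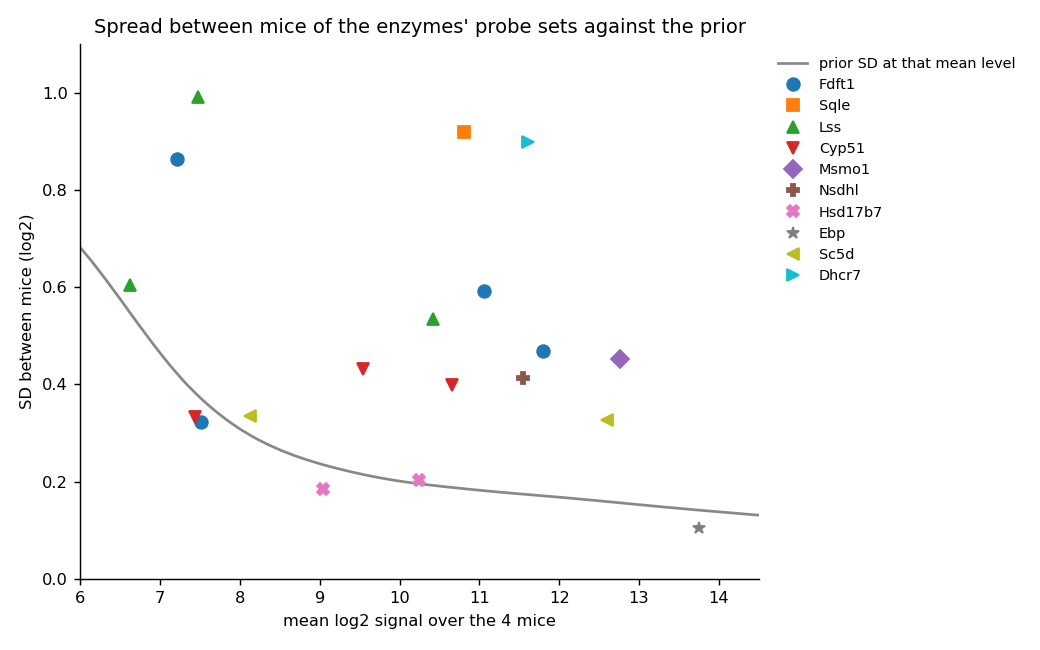
SD between the 4 mice (y axis, log2) against mean log2 signal (x axis) for the 19 probe sets of the enzymes, with the prior SD at each mean level as a grey curve. Sqle and Dhcr7 lie farthest above the curve in ratio (4.96 and 5.18 times), while Ebp and the dimmest probe sets of Hsd17b7 and Cyp51 and one of Fdft1 lie under it.

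For 5 members with at least 2 probe sets, the difference between mice that the probe sets share was compared with their disagreement. Fdft1, with 4 probe sets, had shared values of -0.52, 0.50, 0.34 and -0.33 log2 in mice 1 to 4, relative to their mean. Lss, with 3, had -0.64, 0.45, 0.68 and -0.50, and Cyp51, with 3, had -0.43, 0.24, 0.37 and -0.17. In each of these genes the shared values placed mice 1 and 4 below the mean and mice 2 and 3 above it. Hsd17b7 had smaller shared values of -0.05, 0.19, 0.10 and -0.23, and those of Sc5d were 0.07, -0.18, 0.28 and -0.17. Over the 4956 genes with 2 or more probe sets, 0% passed the limma-moderated F-test after adjustment, and 0 of 5 members did (adjusted p = 0.571 for Cyp51 and 0.580 for Fdft1 and Lss). Unadjusted, 3 of 5 were under 0.05, against 6.74% of all such genes. When only probe sets of mean log2 level 8 or more were used, Fdft1 passed on its 2 bright probe sets (limma, adjusted p = 0.021). That setting called 1 of 4 members and 38 of 2355 genes in all. Probe sets of 1 gene share the RNA and the array, so this test bears on probe set noise alone.

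The mevalonate arm, which supplies farnesyl diphosphate, gave a like picture in the 7 of 9 listed genes that had a probe set of their own. All 7 were higher in mouse 2 and in mouse 3 than in mouse 1 and mouse 4, against 59.2% to 60.2% of all genes. The medians were 0.72 log2 for mouse 2 minus mouse 1 and 1.02 for mouse 3 minus mouse 4. Mvk, mevalonate kinase and the dimmest of them, measured 6.45, 8.16, 9.03 and 7.79 log2 in mice 1 to 4, and Mvd, the decarboxylase, 8.64, 9.46, 9.79 and 8.23. Hmgcs1, the synthase that opens the arm, measured 13.63, 14.34, 14.65 and 13.79. At an unadjusted p under 0.05 in limma's test of spread there were 6 of 7, against 3.71% of all probe sets. After adjustment over all probe sets there were 0. Ggps1, which draws farnesyl diphosphate off to geranylgeranyl diphosphate, was the flattest at 8.71 ± 0.17 (SD, n = 4). The arms differed in how mice 2 and 3 compared. In the mevalonate arm 1 of 7 genes was higher in mouse 2 than in mouse 3, with a median of -0.27, and among the members 7 of 10 were, with a median of 0.05. The small member value was not stable, and it reversed to -0.029 as a mean over members. This difference between the arms was not tested. In the same mice muscle markers were lowest in mouse 1 and pancreas markers highest in mouse 2, as given above.

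Other enzymes that act after lanosterol were less uniform. Tm7sf2, a sterol reductase of the endoplasmic reticulum, measured 11.58, 11.97, 12.15 and 11.36 log2 in mice 1 to 4. Erg28, a scaffold that in yeast holds the demethylating enzymes together, measured 10.88, 11.19, 11.02 and 10.66. Both had mice 1 and 4 lowest. Lbr, a nuclear envelope protein with the same reductase activity as Tm7sf2, measured 9.44, 9.78, 9.47 and 9.89 and was highest in mouse 4. None of these 3 passed limma's test of spread (adjusted p from 0.977 to 0.980).

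Among the listed electron partners of Sqle, Cyp51, Msmo1 and Sc5d, the measured genes differed little between mice. Of 5 listed genes 4 were measured, with a median SD of 0.15 log2, and cytochrome P450 reductase was not among the 4. Cyb5a, cytochrome b5, measured 15.11, 14.87, 14.77 and 14.97 in mice 1 to 4 and was highest in mouse 1. Cyb5b, its mitochondrial form, measured 12.60, 12.81, 13.15 and 12.81, and Cyb5r3, its reductase, 13.85, 14.10, 14.21 and 14.02. Both were lowest in mouse 1 and highest in mouse 3, over smaller ranges than most of the members. Pgrmc1, a heme protein that binds cytochrome P450 enzymes, measured 15.13, 15.01, 15.16 and 15.30. The median of the 4 ran from -0.11 in mouse 1 to 0.09 in mouse 3, relative to the mean of the 4 mice.

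The genes that control the pathway were mixed. Srebf2, which encodes SREBP-2, measured 9.12, 9.92, 9.52 and 9.09 log2 in mice 1 to 4, with mice 1 and 4 lowest and mouse 2 highest. Srebf1, which encodes the SREBP of fatty acid synthesis, measured 11.54, 12.01, 13.44 and 11.65, with mouse 3 alone high. Insig2, which holds SREBPs back in the endoplasmic reticulum, ran the other way, at 13.63, 13.19, 12.94 and 13.29, highest in mouse 1 and lowest in mouse 3. Scap, the escort of SREBPs, measured 10.99, 11.30, 11.46 and 11.46, and Mbtps1, a protease that cuts them, was flat at 10.70 ± 0.09 (SD, n = 4). Of these 5 genes 0 passed limma's test over all probe sets, and 1, Srebf1, had an unadjusted p under 0.05 (3.71% of all probe sets).

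Genes that take up, move or remove sterol showed smaller differences as lists. The 5 of 7 uptake and transport genes that were measured had medians from -0.17 in mouse 1 to 0.11 in mouse 4, relative to the mean of the 4 mice. Stard4, a cytosolic sterol carrier, was the widest of them at 9.07, 9.26, 10.39 and 8.72 log2 in mice 1 to 4, Lipa, the lysosomal acid lipase, followed at 13.05, 13.02, 12.67 and 13.13, and Npc1, a lysosomal sterol exporter, the flattest at 10.59 ± 0.12 (SD, n = 4). The 9 of 11 outlet genes had medians from -0.17 in mouse 1 to 0.10 in mouse 3. Cyp39a1, an oxysterol hydroxylase of bile acid synthesis, measured 8.33, 9.93, 8.42 and 8.72, with mouse 2 alone high. Cyp7a1, the sterol hydroxylase that limits how fast bile acids are made, measured 12.80, 12.74, 13.88 and 12.54, with mouse 3 alone high. Cyp27a1, which oxidises the sterol side chain, was flat at 13.80 ± 0.07 (SD, n = 4). Fatty acid synthesis genes, 12 of 12 measured, had medians of -0.17, 0.04, 0.25 and -0.10 in mice 1 to 4. Thrsp, a lipogenic regulator, measured 13.94, 15.11, 15.01 and 14.42, Fasn, fatty acid synthase, 11.13, 11.57, 12.16 and 11.32, and Scd1, the stearoyl-CoA desaturase and the flattest of the list, 15.34, 15.23, 15.13 and 15.45. Mouse 1 was lowest for Thrsp and Fasn. In none of these lists did a gene pass limma's test over all probe sets. In that test 1 of 5 uptake, 2 of 9 outlet and 2 of 12 fatty acid synthesis genes had an unadjusted p under 0.05. Over all probe sets it was 3.71%.

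**Figure D4:**
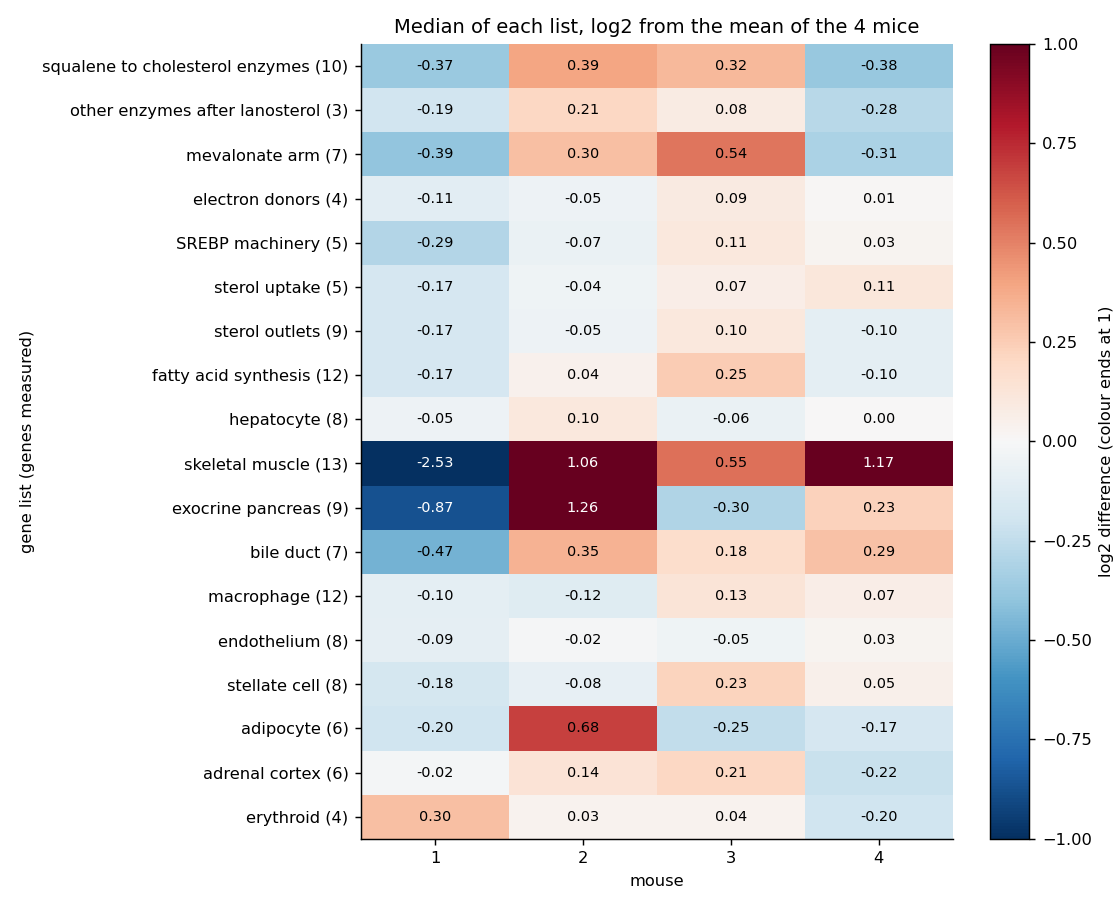
Median over the genes of each list (rows, with the number of genes measured) in each mouse (columns), as log2 difference from the mean of the 4 mice. The first row holds the 10 enzymes, at -0.37, 0.39, 0.32 and -0.38, the mevalonate arm lies at -0.39, 0.30, 0.54 and -0.31, and skeletal muscle at -2.53, 1.06, 0.55 and 1.17.

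The members were also ranked by how closely each followed the median profile of all 10, measured as the root mean square difference over the 4 mice after centring. Nsdhl was closest at 0.04 log2, followed by Fdft1 at 0.08, Cyp51 at 0.09 and Lss at 0.11. Sqle at 0.46 and Dhcr7 at 0.45 were farthest because their ranges were wider, and Ebp at 0.34 because its range was narrower. A flat profile would lie at 0.37. Among 7397 other genes of mean log2 level 8 or more, the 10 nearest were Gsk3a, Utp4, Os9, Idi1, Gabbr1, Tmx2, Grb2, Pop7, Mmp2 and Gapdhs, at distances of 0.04 to 0.06. Idi1, the isopentenyl diphosphate isomerase of the mevalonate arm, was the 1 gene of the cholesterol lists among them, at 12.03, 12.84, 12.73 and 12.13 log2 in mice 1 to 4. With 4 mice a profile is easily matched. There were 355 other genes at least as close as the median member, at 0.19. The members set the median profile and the other genes did not, so the distances are not on equal terms.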

How the data were processed

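Liver RNA of 4 ABCA1-transgenic mice was measured with 1 array each, after RiboAmp amplification of 2 ug of total RNA per the labels' protocols. The deposited values are 1 linear signal intensity per probe set and array. RMA is listed in the submitters' processing notes with no version, and background treatment and scaling are not given in the sources used here. On every array the mean was 1000 once the top and bottom 2% of values were dropped. The linear values ran from 0.1 to 79882.6. With this scale and common mean, it is unclear whether RMA gave the deposited values. The number of arrays limits the precision.

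The log2 of each deposited value was taken, without a pseudocount or rescaling. The 64 control probe sets were left out. Names came from the platform annotation, where 20380 probe sets had 1 symbol, 691 several and 1555 none. For 20351 of the 20380, an Entrez match in RefSeq was found, which changed 0 symbols. Values per gene use the probe set of highest mean level. Spread was tested with limma 3.58.1 in R 4.3.3: each variance over a robust prior following mean level, upper-tail F, Benjamini-Hochberg over all probe sets, threshold 0.05. The second test set the mean square for mouse against the limma-moderated residual in a layout of probe set and mouse. Both were tested on simulated data. The simulated noise was normal at the prior SD, so it does not show what the tests miss in these arrays. The labels give 1 group and do not say whether the animals were littermates. The first test sets the spread between these samples against that of other probe sets, the second against disagreement among a gene's probe sets. Neither p-value reaches beyond these samples.

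The members, lists and tests were chosen with earlier results of these data known. The text names every member, any gene of the lists nearest the pathway, the 2 genes of largest and the 1 of smallest SD in the sterol uptake, sterol outlet and fatty acid lists, and the 10 genes nearest the members' profile. Alb, Pck1 and Alas2 were named after their values were seen, and the adrenal cortex markers are given in full.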

Additional observations from a re-analysis of the deposited data

Results flagged for a closer look

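The log2 ratio of the 3 prime to the 5 prime control probe set of Pcx, pyruvate carboxylase, was 4.09 in mouse 1 and 4.79, 4.71 and 4.79 in mice 2 to 4. Mouse 1 stood far from the other 3, with a gap of 0.886 of the whole range. Chance gives such a gap in about 1 of 20 groups, and 19 member probe sets and 5 array measures were looked at, of which this was the 1 found. The mean log2 signal of the control probe sets for small-subunit ribosomal RNA was 9.95 in mouse 1 and 8.98, 8.75 and 8.79 in mice 2 to 4. Mouse 1 was also the lowest mouse for 6 of the 10 enzymes, and the part of RNA quality in that was not tested.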

How the results depend on the processing

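No paired analysis was possible because the labels hold 1 group. The 4 differences of mouse 2 or 3 against mouse 1 or 4 kept their direction under quantile normalization, arrays at the same median, a pseudocount of 32, signals under 64 raised to 64, no _s_at or _x_at probe sets, the mean over probe sets and the mean over members. Shifting the arrays to the same median gave the lowest values, 0.63 for mouse 2 minus mouse 1, 0.60 for mouse 3 minus mouse 1, 0.58 for mouse 2 minus mouse 4 and 0.52 for mouse 3 minus mouse 4, and moved the median of all genes from 0.11 to -0.08 in the last. There Ebp was lower in mouse 3 than in mouse 4. The small median of mouse 4 minus mouse 1 was not stable in size, at 0.019 with the mean over probe sets, 0.029 without _s_at and _x_at probe sets and 0.156 with the arrays at the same median. That of mouse 2 minus mouse 3 was 0.021 under the first and second of these and 0.028 under quantile normalization. It reversed to -0.029 as a mean over members, and Sc5d and Dhcr7 were its lowest members. With probe sets of mean log2 level of at least 8, 13 of 11796 probe sets passed the spread test, with 0 of 14 member probe sets, and 38 of 2355 genes the shared test, with 1 of 4 members, Fdft1. A pseudocount of 32 and signals raised to 64 each gave 1 gene in the shared test, no member, and the cause was not tested. In the spread test, signals raised to 64 gave the same adjusted p to every member probe set (limma, 0.213), so that setting did not separate Sqle from Ebp. Leaving out each mouse in turn left 0 probe sets and 0 genes past either test. The SD of Sqle ran from 0.68 without mouse 1 to 1.07 without mouse 4, and that of Dhcr7 from 0.70 to 1.04 without the same mice. SDs that moved by over 1.5 times without mouse 4 were 0.26 for Msmo1, 0.029 for Ebp and 0.068 for the dimmer probe set of Hsd17b7. Without mouse 3 they were 0.53 for Lss 1426913_at and 0.12 for Sc5d 1451457_at, and without mouse 1 0.21 for Sc5d 1424709_at. With the arrays at the same median both probe sets of Hsd17b7 also moved by over 1.5 times, from 0.20 and 0.19 to 0.12 each. Unadjusted, 4 of 19 member probe sets were under 0.05 with the arrays at the same median, against 774 of all 22626 probe sets. With 1 prior variance for all levels it was 0 of 19, against 930 of 22626. As reported it was 8 of 19, against 839 of 22626.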
